A study of Mus musculus with 6 samples.

Results

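Radial glia and astrocyte genes were followed across 3 kinds of cultured mouse cells: Ptprz1, Aldh1l1, Bcan, Sparcl1, Slc1a3, Fabp7, S100b, Glul and Olig2. They were chosen by name, taking each probe on the array whose RefSeq accession or symbol maps to one of them. This gave 12 probes of 9 genes, out of 41006 probes and 12362 genes that could be named on the array, and all 12 probes entered the test. Bcan, Sparcl1 and Glul had 2 probes each and the other genes had 1.

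The groups were neurospheres (NS), embryonic stem cells (ESC) and multipotent adult progenitor cells (MAPC), with 2 arrays a group, called replicates 1 and 2. MAPC were a line grown from bone marrow, depleted of CD45+ and Ter119+ cells after 4 weeks, replated at 10 cells per well and used after more than 80 population doublings in 5% O2 and 6% CO2. Their medium held 2% serum, 10 ng/mL epidermal growth factor (EGF), PDGF-BB, 1000 units/mL leukemia inhibitory factor (LIF), insulin, transferrin, selenium, lipids and mercaptoethanol. The labels title both MAPC arrays mMAPC-1 and describe both as clone 2, high in Oct4, with no strain; they were taken as 1 clone, so the spread between the MAPC arrays is not a spread between clones. ESC were of strain C57BL/6 and grew over a layer of irradiated mouse embryonic fibroblasts in medium with 15% serum, LIF and mercaptoethanol, and were moved off this layer before RNA extraction. NS were floating cultures of neuroepithelial cells from the telencephalon of C57BL/6 embryos at E11.5, grown with 20 ng/mL of basic fibroblast growth factor and of EGF. Each sample was labelled with Cy3 and hybridised beside a Cy5-labelled reference pooled from RNA of 11 mouse cell lines, with no dye swap. The series names biological replicates without saying whether they were separate animals or cultures, so p-values measure the spread between these samples. Cell type, strain where it differs, and culture cannot be told apart.

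Radial glia are the stem cells of the embryonic forebrain: they span its wall, divide to give neurons, and later give rise to astrocytes and oligodendrocytes. Many of the genes that mark them, such as the glutamate transporter Slc1a3 and the fatty acid binding protein Fabp7, stay on in astrocytes, whereas Aldh1l1, S100b and Glul are better known from mature astrocytes. Neurospheres are expanded from such progenitors, and cells in them keep dividing while growth factors are present.

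The array probes of the genes with 2 probes are shown because the probes of a gene did not always give the same answer. Each is 60 bases long in the deposited files, and bases 16 to 45 are printed 5′ to 3′ as deposited. Capitals mark AATAAA, the usual polyadenylation signal, where it falls inside the printed bases.
Bcan A_66_P116272: agtaccagcaaaaccaggtggaAATAAAgt
Bcan A_66_P114742: gggactactgtctggaacgtggtgcacaga
Sparcl1 A_66_P130178: agataaatatgcctccttttcagtgtcttg
Sparcl1 A_66_P101939: aggaggatatagatgaaaacctcctctttt
Glul A_66_P110414: gccatgtatagtatgttcggttagataact
Glul A_66_P134479: ttttctgccggtgttgccaaccgcggtgcc

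Of these, Bcan A_66_P116272 and Sparcl1 A_66_P130178 hold AATAAA somewhere in their 60 bases, the latter outside the printed part, and none of the other 10 probes of the 9 genes does. Glul A_66_P110414 and Sparcl1 A_66_P101939 have a stop codon in each of the 3 forward reading frames, whereas Glul A_66_P134479 has none in any. The GC content was 41.7% and 61.7% in the Bcan probes, 33.3% in both Sparcl1 probes, and 35% and 56.7% in the Glul probes, in the order listed. The place of each probe in its transcript was not analysed here.

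Promoters are shown for Fabp7 and Slc1a3, the radial glia genes that were high in NS and whose annotated start is also the end of the gene, so that the bases before it lie outside the transcript. RefSeq (GRCm38.p6) places the 250 bases before the Fabp7 start at chr10:57784673-57784922 on the plus strand and those of Slc1a3 at chr15:8710808-8711057 on the minus strand. Both are printed 5′ to 3′ along the gene's strand, with capitals for the letters ACAAT (core of SOX factor sites), TGGGAA (core of the site of RBPJ, the DNA-binding partner of Notch) and TTGGC (part of the site of NFI factors), on either strand.
Fabp7 promoter: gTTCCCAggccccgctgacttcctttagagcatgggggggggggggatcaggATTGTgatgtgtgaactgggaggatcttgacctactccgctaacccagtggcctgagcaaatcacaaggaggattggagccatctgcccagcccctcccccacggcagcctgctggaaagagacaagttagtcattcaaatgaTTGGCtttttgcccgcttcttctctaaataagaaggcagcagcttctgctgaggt
Slc1a3 promoter: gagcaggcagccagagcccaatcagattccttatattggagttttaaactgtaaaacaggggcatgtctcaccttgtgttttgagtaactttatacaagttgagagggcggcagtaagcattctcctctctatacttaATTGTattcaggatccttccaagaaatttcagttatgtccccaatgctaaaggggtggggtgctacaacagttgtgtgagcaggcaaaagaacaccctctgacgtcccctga

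The Fabp7 window held 1 match to each of the 3 letter strings and the Slc1a3 window 1 match to ACAAT, and no marked bases overlapped. Among 32851 promoter windows of the same length, ACAAT occurred in 27.7%, TGGGAA in 21.6% and TTGGC in 41.5%, so single matches are common. Of the other strings searched on both strands, CANNTG (E-box, 66.2% of windows) had 2 matches in Fabp7 and 1 in Slc1a3, and CACNAG (N-box, 36.7%) had 1 match in each. ACAAAG (SOX variant, 16.5%) and ATGCAAAT (POU octamer, 1.6%) had 0 in both. A match describes letters in the window and not a bound site. Of the 9 genes, 8 had a promoter entry; Sparcl1 did not.

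**Figure D1:**
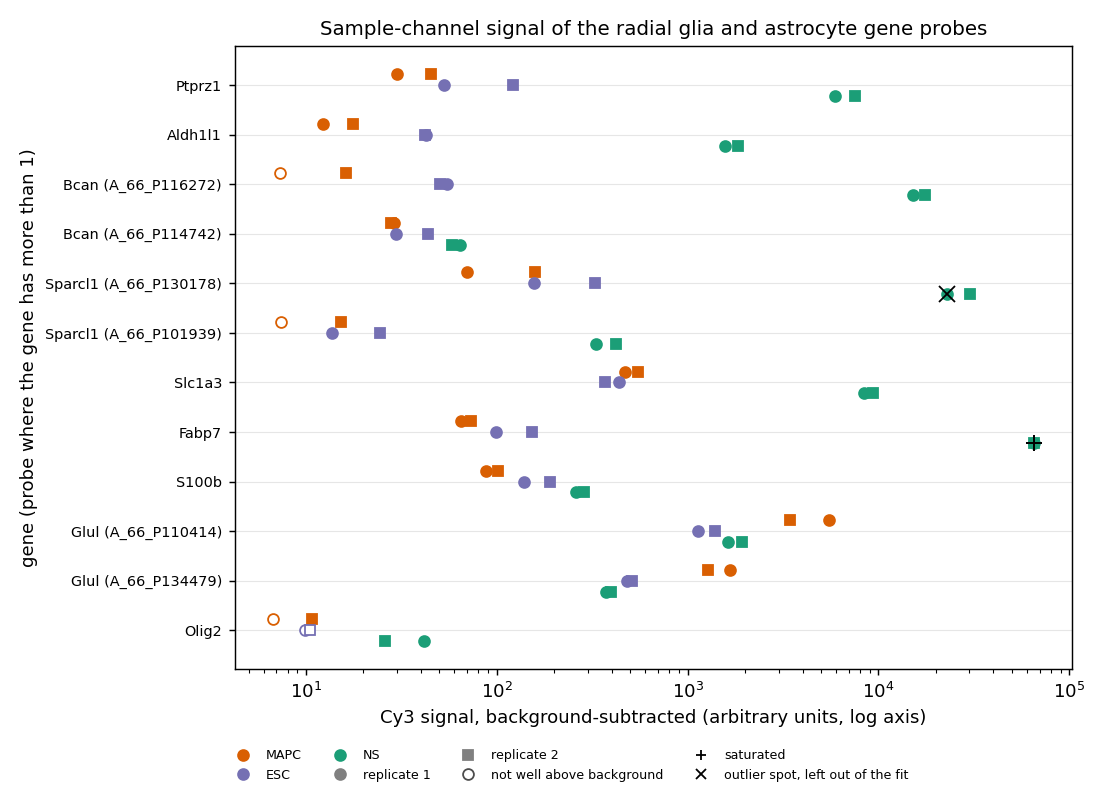
Background-subtracted Cy3 signal of the sample (log axis, arbitrary units) for the 12 probes, 1 point per array; open points were not well above background, plus signs mark saturated spots and the cross an outlier spot left out of the fit. The NS points lie to the right of both other groups for every probe except those of Glul, and the Fabp7 points of both NS arrays coincide at 65160.

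Before the results, a property of the reference channel has to be given, because it changes the size of the ratios. Among spots with Cy3 above 2000 on both arrays of NS and with Cy3 and Cy5 below 400 on all other arrays, 33 in number, the Cy5 signal on the NS arrays was 2.86 times that on the other arrays (median) and 10.3% of the Cy3 signal. The same held for 12 spots bright in MAPC alone (3.31 times) and 16 bright in ESC alone (2.51 times), and 100% of the spots in each set had the higher Cy5 where Cy3 was high. Cy5 was limited only on the other arrays, so the choice of spots itself favoured a higher Cy5 on the bright arrays. These sets therefore do not measure how common or how large such a rise is. A reference that is the same on each array would give the same Cy5 throughout. The cause was not tested. Where Cy5 is higher on the bright arrays, the log2 ratio is smaller than the difference in Cy3. Each difference is therefore given as the log2 ratio of sample to reference and again from the Cy3 sample channel alone. These limits of 400 and 2000 were chosen after the data were seen.

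The neurospheres carried neural progenitor markers. The transcription factor Sox2 gave Cy3 signals of 12650 and 15960 in NS against 10.6 and 17.9 in MAPC, and was also high in ESC at 9519 and 10060. Hes5, a target of Notch, gave 3518 and 3914 in NS, 49.0 and 50 in ESC, and 9.63 and 16.7 in MAPC. The filament gene Nes gave 1585 and 1535 in NS against 148 and 199 in ESC and 92.8 and 88.3 in MAPC, and Pax6 gave 146 and 174 against at most 36.5 elsewhere. Of the defining astrocyte genes, Gfap and Aqp4 were not analysed here, because no probe could be named for them, and the transporter Slc1a2 was dim in NS at 36.5 and 23.7. Pou5f1, the gene of Oct4, gave 1423 and 1282 in ESC, 120.6 and 162.6 in MAPC and 53.4 and 59.1 in NS.

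Over the 12 probes, 10 were lower in MAPC than in NS and 2 were higher (limma, Benjamini-Hochberg adjusted p, threshold 0.05). Over all probes tested, 22.4% were lower, 21.8% higher and 44.2% changed in either direction. In ESC against NS, 11 of the 12 were lower and 1 higher, where 18.3% of all probes were lower, 20.4% higher and 38.7% changed. Between MAPC and ESC, 4 were lower, 3 higher and 5 did not pass, beside 22.2% lower, 16.3% higher and 38.5% changed over all probes. The median log2 difference of the 12 was -2.55 in MAPC minus NS, -2.92 in ESC minus NS and -0.21 in MAPC minus ESC, while over all probes it was 0.03, 0.01 and 0.01. The sample channel alone gave 9 lower and 2 higher, 11 lower and 0 higher, and 1 lower and 3 higher in the same order, where 33.9%, 26.6% and 25.8% of all probes changed in either direction. The comparisons against NS share the NS arrays. The genes had been proposed with results of these arrays known, so the counts describe the 9 genes and are not independent evidence.

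**Figure D2:**
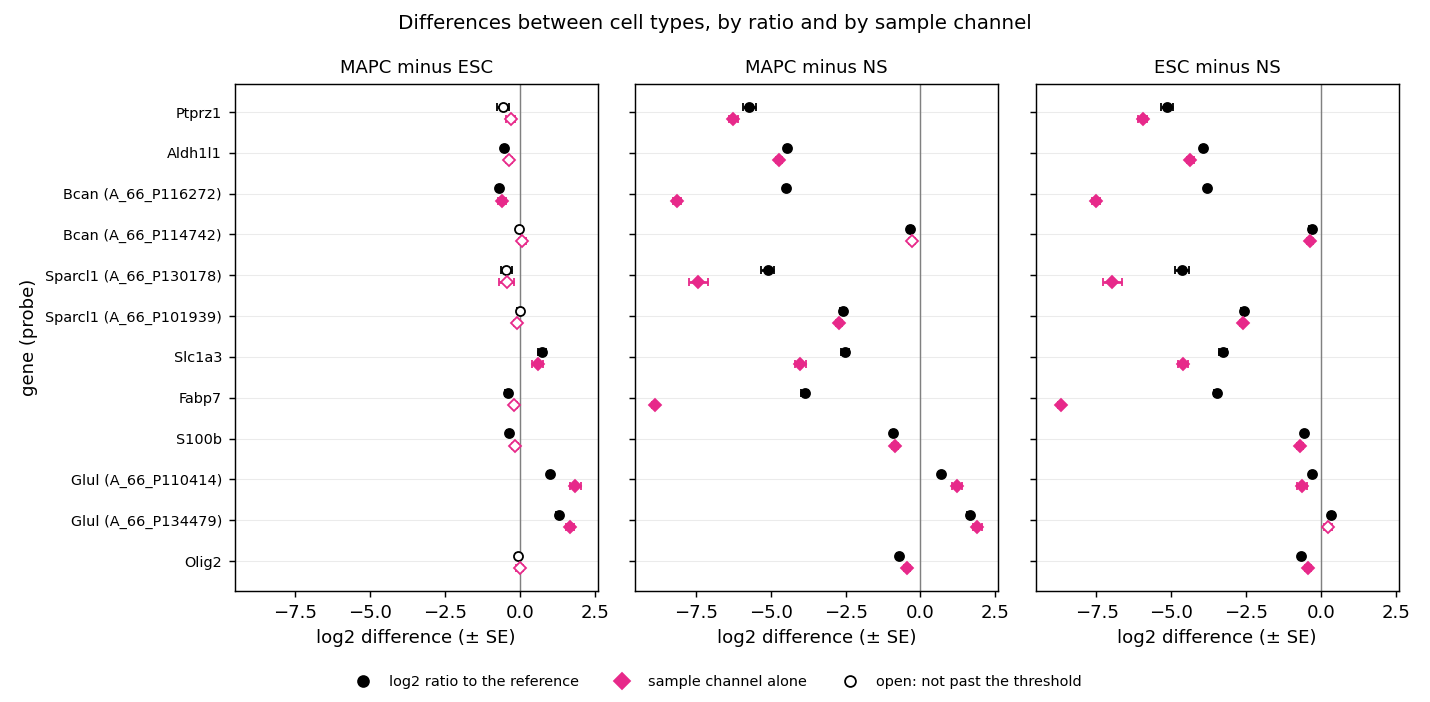
Log2 difference with its moderated SE for each of the 12 probes in 3 contrasts, from ratios to the reference (black circles) and from the sample channel alone (pink diamonds); open symbols did not pass the threshold. Against NS both measures lie left of 0 for each probe but those of Glul, and the sample channel extends furthest beyond the ratio for Fabp7, Bcan A_66_P116272 and Sparcl1 A_66_P130178.

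Ptprz1 encodes a receptor-type tyrosine phosphatase of radial glia and oligodendrocyte precursors, whose ectodomain is also made as the proteoglycan phosphacan. Its Cy3 signal was 5951 and 7528 in NS, 52.8 and 121.8 in ESC, and 29.9 and 45.1 in MAPC. NS stood far above both other groups, and ESC lay above MAPC with no overlap. The log2 ratio was 5.71 ± 0.21 (SE) lower in MAPC than in NS, a 52.5-fold difference (limma, adjusted p = 3.22e-07), and 5.15 lower in ESC, a 35.5-fold difference (adjusted p = 8.47e-07). The sample channel put these differences at -6.26 and -5.95. MAPC minus ESC was -0.56 ± 0.21 and did not pass the threshold (adjusted p = 0.074). Leaving out ESC replicate 1, the dimmer ESC array, made it -0.84 with an adjusted p of 0.0162.

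Ptprz1 binds the neurite-promoting factors pleiotrophin and midkine, the adhesion molecule contactin-1 and the matrix protein tenascin-C. Of its listed ligands and effectors, 7 were tested, while no probe could be named for pleiotrophin (Ptn) or for the paralogue Ptprg. In MAPC 2 were lower and 1 higher than in NS, and in ESC 3 were lower and 1 higher. Thus 42.9% and 57.1% of the 7 changed, beside 44.2% and 38.7% of all probes. Tenascin-C was counted among the radial glia and matrix genes and not among the 7. Contactin-1 (Cntn1) moved in the same direction as the receptor, with Cy3 signals of 1851 and 2393 in NS, 158 and 194 in ESC and 79.2 and 84.1 in MAPC. Its differences were -3.51 in MAPC minus NS (adjusted p = 3.05e-08) and -3.40 in ESC minus NS (adjusted p = 7.28e-08). Midkine (Mdk) moved the other way, at 5681 and 6176 in MAPC, 2616 and 3003 in ESC and 1802 and 1999 in NS. It was 1.36 higher in MAPC than in NS (adjusted p = 9.09e-06) and 0.33 higher in ESC than in NS (adjusted p = 0.0248), the latter call being lost under 8 of 17 alternatives (adjusted p up to 0.143). Its other probe, A_66_P112185, gave 0.93 and 0.82 (adjusted p = 2.54e-05 and 6.32e-05). Tenascin-C (Tnc) was 3.44 lower in MAPC than in NS (adjusted p = 2.07e-08) and, by a small margin, 0.26 higher in ESC than in NS (adjusted p = 0.0213), a call lost under 6 of 18 alternatives.

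Bcan encodes brevican, a lectican proteoglycan of brain matrix that is made by glia. The probe A_66_P116272 gave Cy3 signals of 15130 and 17550 in NS, 54.8 and 50.4 in ESC, and 7.33 and 16.3 in MAPC, where the spot of replicate 1 was not well above background. All 3 groups were separate, in the order NS, ESC, MAPC. By ratio, MAPC was 4.51 ± 0.06 lower than NS (adjusted p = 6.48e-09) and ESC 3.81 ± 0.06 lower (adjusted p = 2.31e-08), which are 22.7-fold and 14-fold. The sample channel gave -8.12 and -7.53, or 279-fold and 184-fold. The Cy5 signal of this spot was 1447 and 1861 on the NS arrays and between 25.2 and 62.5 on the other arrays, so the reference channel differed by -3.90 and -3.85 against NS. MAPC was 0.70 ± 0.06 lower than ESC (adjusted p = 6.82e-05), and -0.60 by the sample channel (adjusted p = 0.0111).

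The other Bcan probe, A_66_P114742, was dim on all arrays, at 63.8 and 58.3 in NS, 29.5 and 43.7 in ESC and 28.9 and 27.9 in MAPC. NS still lay above the other groups, which overlapped in the log2 ratio. Its differences were -0.34 ± 0.08 in MAPC minus NS (adjusted p = 0.0114) and -0.31 ± 0.08 for ESC minus NS (adjusted p = 0.0179), and each call was lost under 6 alternatives, median centring among them (-0.16 in both). MAPC minus ESC was -0.02 (adjusted p = 0.852). Both Bcan probes therefore had NS highest, with differences that are far apart in size. Averaged, they gave -2.42 for MAPC against NS and -2.06 for ESC against NS.

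Among the other lecticans, their link proteins and perineuronal matrix genes, 10 were tested. Against NS, in MAPC 4 were lower and 0 higher, and for ESC against NS 2 were lower and 3 higher. Thus 40% and 50% of the list changed, beside 44.2% and 38.7% of all probes. By the sample channel alone these counts were 1 lower and 0 higher, and 1 lower and 1 higher. Neurocan (Ncan), another lectican of brain, was 0.36 lower in MAPC and 0.38 lower in ESC than in NS (adjusted p = 0.0115 and 0.00929), calls lost under 4 and 3 of 18 alternatives. Aggrecan (Acan) was 0.30 higher in ESC than in NS (adjusted p = 0.00676) by ratio and -0.10 by the sample channel.

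Sparcl1 encodes hevin, a secreted glycoprotein of the SPARC family that astrocytes release and that promotes synapse formation. The probe A_66_P130178 gave 30110 on NS replicate 2 and 23000 on NS replicate 1, where the spot carried an outlier mark and was left out, so the NS value in the fit rests on 1 array. In ESC it gave 155.8 and 327.3 and in MAPC 69.9 and 158.0, far below either NS value. The ratio differences were -5.10 ± 0.23 in MAPC minus NS (adjusted p = 3.14e-06) and -4.65 ± 0.23 in ESC minus NS (adjusted p = 6.58e-06), and by the sample channel -7.42 and -6.97. MAPC minus ESC was -0.45 ± 0.18 and did not pass (adjusted p = 0.105). Without MAPC replicate 2 it was -0.76 (adjusted p = 0.00126), and with the replicate number as a block it passed as well (adjusted p = 0.0353).

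The second Sparcl1 probe, A_66_P101939, had measured spots on all arrays, with 330.3 and 421.8 in NS, 13.7 and 24.6 in ESC, and 7.38 and 15.3 in MAPC, replicate 1 of which was not well above background. NS was again apart from the rest, and the log2 ratios of MAPC and ESC overlapped. Its differences were -2.59 ± 0.10 in MAPC minus NS (adjusted p = 3.17e-07) and -2.58 ± 0.10 in ESC minus NS (adjusted p = 5e-07), about 6.00-fold each, and MAPC minus ESC was 0.00 in size (adjusted p = 0.996). The sample channel gave -2.71 and -2.62 against NS, close to the ratio. Both probes had NS highest.

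The list read beside Sparcl1 was wider than the SPARC family and also held Fst, Fstl3 and Igfbp7. Of its 10 genes tested, 5 were lower and 3 higher in MAPC than in NS. In ESC 2 were lower and 6 higher than in NS. The share changed was 80% in each, beside 44.2% and 38.7% of all probes. Fst and Fstl3 were among those higher in both comparisons, and Igfbp7 among those higher in ESC. Sparc itself, the matrix protein after which the family is named, was 3.04 higher in MAPC than in NS (adjusted p = 2.57e-08) and 0.94 higher in ESC than in NS (adjusted p = 1.47e-05), at Cy3 signals of 60980 and 48060 in MAPC, 7957 and 7369 in ESC and 3419 and 3065 in NS. The direction is opposite to that of both Sparcl1 probes. The activin antagonist Fst was also higher in MAPC than in NS, by 2.42 (adjusted p = 4.03e-08), whereas Fstl1 was 3.52 lower (adjusted p = 1e-08) at its brighter probe and -0.85 at the other, A_66_P133940.

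**Figure D3:**
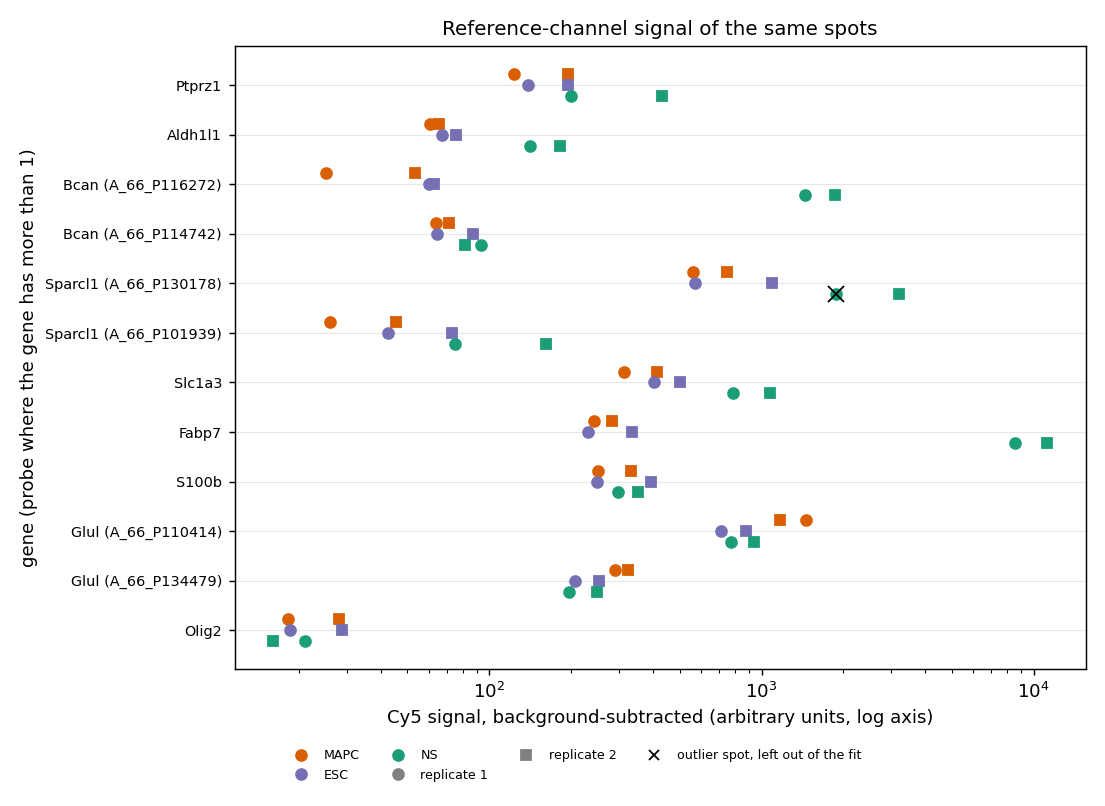
Background-subtracted Cy5 signal of the reference (log axis, arbitrary units) at the same 12 probes, 1 point per array. A constant reference would place the 3 groups together, as for S100b and Bcan A_66_P114742, while the NS points of Fabp7, Bcan A_66_P116272, Sparcl1 A_66_P130178 and Slc1a3 lie to the right. Those of Aldh1l1 also lie to the right, and so do those of Ptprz1 and Sparcl1 A_66_P101939, where NS replicate 1 is close to the rest. For Glul A_66_P110414 the MAPC points lie furthest right.

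Slc1a3 encodes the glutamate transporter GLAST, which clears glutamate from the extracellular space and marks radial glia and astrocytes. Its Cy3 signal was 8402 and 9358 in NS, 472.0 and 550.1 in MAPC, and 436.8 and 367.7 in ESC, so the gene was measured well above background in all 3 cell types. It was one of the genes with MAPC above ESC: the log2 ratio differed by 0.74 ± 0.14 (adjusted p = 0.00316), and the sample channel by 0.60 (adjusted p = 0.0459). Against NS, MAPC was 2.52 ± 0.14 lower (adjusted p = 2.37e-06) and ESC 3.26 ± 0.14 lower (adjusted p = 8.86e-07). The sample channel made these -4.01 and -4.61, 16.1-fold and 24.4-fold, while the Cy5 signal differed by -1.27 and -1.17.

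Glul encodes glutamine synthetase, the enzyme with which astrocytes turn glutamate into glutamine. It was the exception among the 9 genes, being highest in MAPC. The probe A_66_P110414 gave 5513 and 3427 in MAPC, 1637 and 1934 in NS, and 1132 and 1394 in ESC. The probe A_66_P134479 gave 1665 and 1277 in MAPC, 374.8 and 394.6 in NS, and 478.8 and 510.7 in ESC. MAPC lay above both other groups at both probes, by 1.01 ± 0.06 and 1.29 ± 0.09 over ESC (adjusted p = 8.33e-06 and 1.96e-05) and by 0.70 ± 0.06 and 1.64 ± 0.09 over NS (adjusted p = 4.71e-05 and 3.53e-06). By the sample channel these were 1.86 and 1.67 over ESC, and 1.22 and 1.90 over NS. The Cy5 signal of A_66_P110414 was 1457 and 1171 on the MAPC arrays, 708 and 878 on the ESC arrays, and 771 and 939 on the NS arrays.

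The Glul probes disagreed on ESC against NS. A_66_P110414 was 0.31 ± 0.06 lower in ESC (adjusted p = 0.00542) and A_66_P134479 was 0.35 ± 0.09 higher (adjusted p = 0.02), and the latter call was lost under 8 alternatives. Averaged, the probes gave 0.02 (adjusted p = 0.855), so the order of ESC and NS was not settled for Glul.

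Of the other glutamate and glutamine genes, 14 were tested. Against NS, 5 were lower and 6 higher in MAPC, and 4 lower and 7 higher in ESC. That is 78.6% changed in each, beside 44.2% and 38.7% of all probes. The neutral amino acid transporter Slc1a4, a relative of Slc1a3, was 0.34 lower in MAPC and 0.96 lower in ESC than in NS (adjusted p = 0.0123 and 5.1e-05), and the MAPC call was lost under 6 of 18 alternatives. The glutamine transporter Slc38a1 was 1.15 higher in MAPC than in NS (adjusted p = 1.12e-05) and Got2, the mitochondrial aspartate aminotransferase, 0.84 higher (adjusted p = 7.79e-06). Slc1a2, the other main glutamate transporter of astrocytes, gave 9.58 and 8.26 in MAPC, where neither spot was well above background, and 10.8 and 14.5 in ESC, below its dim NS signals.

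Aldh1l1 encodes the cytosolic formyltetrahydrofolate dehydrogenase, an enzyme of folate metabolism that serves as a marker of astrocytes. Its Cy3 signal was 1564 and 1832 in NS, 42.8 and 41.9 in ESC, and 12.2 and 17.7 in MAPC. The groups were separate in that order. The ratio was 4.47 ± 0.06 lower in MAPC than in NS (adjusted p = 6.48e-09) and 3.95 ± 0.06 lower in ESC (adjusted p = 1.93e-08), which are 22.2-fold and 15.4-fold, and the sample channel gave -4.73 and -4.37. The Cy5 signal of this spot was 141 and 182 on the NS arrays against 60.5 to 75.3 elsewhere, and the reference channel differed by -0.48 and -0.60. MAPC was 0.53 ± 0.06 below ESC (adjusted p = 0.000335) by ratio, while the sample channel gave -0.36 and did not pass (adjusted p = 0.055).

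Of the other enzymes and carriers of folate metabolism, 17 were tested and most that changed were higher outside NS. There were 9 higher and 4 lower in MAPC, and 10 higher and 3 lower in ESC. So 76.5% changed in each comparison with NS, beside 44.2% and 38.7% of all probes. Folr1, a folate receptor, was 2.80 higher in MAPC (adjusted p = 3.99e-07) and 2.60 higher in ESC (adjusted p = 8.89e-07), and Mthfd1, a cytosolic folate enzyme, 1.45 and 1.42 higher (adjusted p = 4.35e-07 and 7.6e-07). The purine synthesis enzyme Gart, which uses formyltetrahydrofolate, was 0.90 and 1.82 higher (adjusted p = 3.66e-06 and 1.65e-07). Aldh1l2, the mitochondrial paralogue of Aldh1l1, moved with it but less, being 1.08 lower in MAPC (adjusted p = 1.2e-05) and 0.89 lower in ESC (adjusted p = 4.47e-05). Its Cy3 signal was 375.1 and 449.7 in NS against 175.4 to 214.0 elsewhere. Its other probe, A_66_P111051, gave -0.15 in MAPC (adjusted p = 0.281) and -0.33 in ESC (adjusted p = 0.0322).

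Fabp7, also known as brain lipid-binding protein, is a fatty acid binding protein of radial glia. Its spots were saturated in Cy3 on both NS arrays, at 65160, whereas ESC gave 98.7 and 153.2 and MAPC 65.0 and 73.5. The difference is therefore bounded from below. With both channels normalized by loess and between arrays, NS was at least 473-fold above MAPC and at least 399-fold above ESC in Cy3. This bound depends on the normalization: the quantile-normalized sample channel gave 472.3-fold and 416.5-fold. The Cy3 channel is also open to dye bias without dye swaps. The log2 ratio gave far less, -3.87 ± 0.11 in MAPC minus NS (adjusted p = 1.07e-07) and -3.47 ± 0.11 in ESC minus NS (adjusted p = 3.07e-07), and the Cy5 signal of this spot was 8556 and 11180 on the NS arrays against 231 to 335 elsewhere, so the reference in the ratio was high there too. MAPC was 0.40 ± 0.11 below ESC (adjusted p = 0.0277), a call that was lost under 6 of 18 alternatives (adjusted p up to 0.352). Among these were leaving out any 1 of the 4 MAPC and ESC arrays, and the sample channel (-0.18, adjusted p = 0.221).

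The fatty acid and retinoid binding proteins related to Fabp7 had no common direction: of 9 tested, 3 were lower and 1 higher in MAPC than in NS, and 1 was lower and 4 higher in ESC than in NS. Thus 44.4% and 55.6% of the list changed, beside 44.2% and 38.7% of all probes. Fabp5, which is expressed in skin and in neural progenitors, followed Fabp7. Its Cy3 signal was 63410 and 65150 in NS, the second of them saturated so that differences from NS may be understated, 3945 and 4194 in ESC, and 384 and 325 in MAPC, and its differences were -6.83 in MAPC minus NS (adjusted p = 6.48e-09) and -3.69 in ESC minus NS (adjusted p = 1.11e-07). Unlike Fabp7, Fabp5 was also far lower in MAPC than in ESC, by 3.14 (adjusted p = 2.14e-07). Fabp3, the heart-type protein, went the opposite way: its Cy3 signal was 65150 on both MAPC arrays, where it was saturated, 7254 and 9317 in ESC, and 304.5 and 318 in NS, and ESC was 3.92 higher than NS (adjusted p = 8.19e-08).

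S100b encodes a calcium-binding protein of astrocytes. The signals were 259.9 and 285.2 in NS, 138.2 and 189.9 in ESC, and 87.3 and 101.6 in MAPC, a narrower range than for the genes above and without overlap. The differences were -0.91 ± 0.06 in MAPC minus NS (adjusted p = 5.59e-06), -0.55 ± 0.06 in ESC minus NS (adjusted p = 0.000122) and -0.36 ± 0.06 in MAPC minus ESC (adjusted p = 0.00145). The first 2 held in the sample channel, at -0.85 and -0.69, and the last did not pass there (-0.17, adjusted p = 0.287). Of 12 other S100 genes tested, 5 were higher, 1 lower and 6 not called in MAPC against NS. In ESC against NS, 4 were higher, 2 lower and 6 not called. The 50% changed in each stands beside 44.2% and 38.7% of all probes. S100a6 was 4.42 higher in ESC (adjusted p = 3.03e-06), where 1 of the 2 spots was saturated so that the value may understate the difference, and 1.15 higher in MAPC (adjusted p = 0.0046), and S100a16 was lower in both, by 1.65 in MAPC (adjusted p = 3.15e-06) and 0.90 in ESC (adjusted p = 0.000125).

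Olig2 encodes a basic helix-loop-helix (bHLH) factor of oligodendrocyte and motor neuron progenitors that neurosphere cultures commonly express. Its probe was dim throughout: 41.6 and 26.1 in NS, 6.69 and 10.8 in MAPC, and 9.84 and 10.5 in ESC. Both ESC spots and that of MAPC replicate 1 were not well above background, and at least 99.7% of the 314 negative control spots lay below the NS values. By ratio, MAPC was 0.71 ± 0.06 below NS (adjusted p = 4.26e-05), and ESC minus NS passed the threshold as well (adjusted p = 8.28e-05). Since neither ESC spot was well above background, the size of the latter has only a bound, at least 1.44-fold with both channels normalized by loess and between arrays. That bound depends on the normalization: the quantile-normalized sample channel gave -0.44, or 1.35-fold, and the alternatives reached down to -0.12. The sample channel gave -0.45 for MAPC minus NS. MAPC and ESC overlapped, with a difference of -0.06 (adjusted p = 0.546).

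Its neighbour in function, Olig1, had a bright probe with a larger difference. Olig1 gave Cy3 signals of 6845 and 6893 in NS, 425.9 and 605.7 in ESC, and 115.0 and 119.4 in MAPC, and was 3.56 lower in MAPC (adjusted p = 4.22e-08) and 2.60 lower in ESC (adjusted p = 3.29e-07) than in NS. Of 21 related bHLH factors and their inhibitors tested, 12 were lower and 1 higher in MAPC than in NS. In ESC 11 were lower and 2 higher than in NS. The share changed was 61.9% in each, beside 44.2% and 38.7% of all probes. Hes5 was 4.68 and 3.94 lower (adjusted p = 3.56e-08 and 1.48e-07), and the inhibitor Id3 5.18 and 1.41 lower (adjusted p = 5.79e-08 and 8.33e-05).

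Across the 9 genes, NS was the highest group for 8 of them at each of their probes, and Glul was the one with MAPC highest. In the order of MAPC and ESC the genes fell into 3 kinds. Aldh1l1, Bcan (A_66_P116272), Fabp7 and S100b were lower in MAPC by ratio, of which Bcan passed in the sample channel too. Slc1a3 and Glul were higher in MAPC by both measures. Ptprz1, Sparcl1 and Olig2 did not pass in that comparison. The size of a difference varied over the alternatives of processing, also for S100b, which was well above background on each array. In MAPC minus NS the call held in each alternative with a value for every probe but Bcan A_66_P114742, while sizes varied. For example, the difference ranged from -5.33 to -2.88 for Aldh1l1 and from -3.55 to -1.16 for Sparcl1 A_66_P101939. It ranged from -1.06 to -0.48 for S100b and from -2.33 to -0.13 for Olig2. MAPC minus ESC ranged from -1.67 to -0.16 for Bcan A_66_P116272, passing in each alternative, and from -1.32 to -0.12 for Aldh1l1, where it also missed the threshold without background subtraction (adjusted p = 0.214).

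In the neural lists from which the genes' company was read, most genes that changed were lower outside NS. Of 24 further radial glia genes tested, 18 were lower and 2 higher in MAPC than in NS (83.3% changed), and 19 lower and 2 higher in ESC than in NS (87.5%), with median differences of -2.03 and -1.35. Over all probes 44.2% and 38.7% changed. That set is unlike the lists, since it includes unnamed probes, whereas each list gene was read at its brightest named probe. Nfia, a factor that starts gliogenesis, was 4.17 and 3.50 lower (adjusted p = 2.24e-08 and 9.55e-08) at its brighter probe, but the other Nfia probe, A_66_P115098, was 0.45 higher in MAPC (adjusted p = 0.00599) and only -0.40 in ESC minus NS, so Nfia is uncertain. The EGF receptor inhibitor Lrig1 was 5.64 and 3.10 lower (adjusted p = 1.93e-08 and 4.94e-07). Of 23 further astrocyte genes, 14 were lower and 6 higher in MAPC (87% changed), and 16 lower and 5 higher in ESC (91.3%), with medians of -0.52 and -0.50. Their summed Cy3 signal, in which bright genes weigh most, was nonetheless highest in MAPC. It was 64462 to 80016 there, 27662 to 30927 in NS and 15866 to 18722 in ESC. Acsbg1, an acyl-CoA synthetase of brain, was 4.42 and 4.06 lower (adjusted p = 8.76e-09 and 2.82e-08) at its brighter probe and -0.23 and -0.38 at the other, A_66_P119540, while clusterin (Clu) was 4.14 and 0.47 higher (adjusted p = 1.11e-08 and 0.00132).

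Of 15 oligodendrocyte lineage genes, 9 were lower and 3 higher in MAPC than in NS (80% changed), and 7 lower and 1 higher in ESC (53.3%). Sox8 was 2.17 and 2.43 lower (adjusted p = 1.75e-07 and 1.87e-07), whereas Pdgfra, the platelet-derived growth factor receptor of oligodendrocyte precursors and mesenchyme, was 2.42 higher in MAPC (adjusted p = 3.36e-08) and 0.58 lower in ESC (adjusted p = 8.63e-05). Of 18 neuronal genes, 14 were lower and 1 higher in MAPC (83.3% changed), and 9 lower and 3 higher in ESC (66.7%), which became 8 and 1, and 6 and 3, by the sample channel. Stmn2, a neuronal microtubule regulator, was 1.62 lower in MAPC (adjusted p = 1.51e-07) but 3.69 higher in ESC (adjusted p = 1.33e-08). The 1 neuronal gene higher in MAPC was the marker Tubb3, by 1.95 (adjusted p = 5.87e-07). It was also 0.99 higher in ESC than in NS (adjusted p = 3.2e-05).

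**Figure D4:**
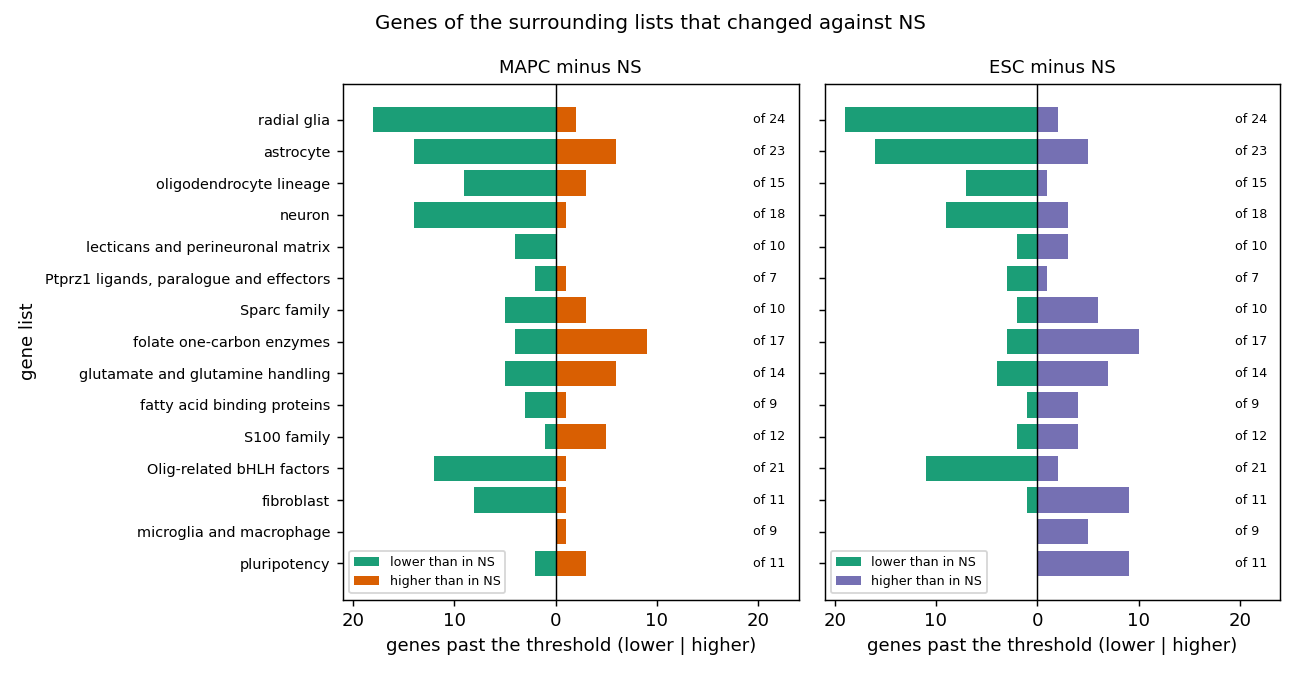
Number of genes of each list that passed the threshold as lower than in NS (to the left, green) or higher than in NS (to the right), for MAPC and for ESC, with the number tested at the right. Lower genes outnumber higher ones 18 to 2 and 19 to 2 among radial glia genes, while folate enzymes lean the other way, 4 to 9 and 3 to 10.

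Markers of other cells differed between the cultures too. Of 11 fibroblast genes, 9 were higher and 1 lower in ESC than in NS (90.9% changed, beside 38.7% of all probes). In MAPC 8 were lower and 1 higher than in NS (81.8%, beside 44.2%). The sample channel made these 7 higher and 1 lower, and 5 lower and 0 higher. Their summed Cy3 signal was 32540 to 33791 in ESC, 9388 to 11301 in NS and 2884 to 3373 in MAPC. Of 9 microglia and macrophage genes, 5 were higher and 0 lower in ESC than in NS (55.6% changed), and 1 higher and 0 lower in MAPC (11.1%), with summed signals of 4532 to 5554, 2590 to 2819 and 2925 to 3126 in ESC, NS and MAPC. The leukocyte gene Ptprc was at most 15.8 on any array. Of 11 pluripotency genes, 9 were higher and 0 lower in ESC than in NS (81.8% changed), and 3 higher and 2 lower in MAPC (45.5%, near the 44.2% of all probes). Their sums were 27462 to 28050 in ESC, 13791 to 17302 in NS and 1388 to 1521 in MAPC. Sox2 alone made up 12650 and 15960 of the NS sums. The part of other cells in the differences of the 9 genes was not tested, and fewer cells of a type and less RNA per cell cannot be told apart in RNA of whole cultures.

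Genes with the most similar pattern were sought among 10131 named probes measured on all 6 arrays and past the threshold in at least 1 contrast, by the root mean square (RMS) distance between log2 ratio profiles over the 6 arrays, each centred on its own mean. For Ptprz1 they were the neuronal and glial membrane protein Gpm6a (0.266), the receptor-modifying protein Ramp1 (0.284) and the potassium channel subunit Kcnmb4 (0.345). Gpm6a had mean log2 ratios of 4.97 in NS, -0.30 in ESC and -0.55 in MAPC. Aldh1l1 and Bcan (A_66_P116272) were each other's nearest (0.0885), followed by Acsbg1 (0.121) and Hes5 (0.131) for Aldh1l1 and by Hes5 (0.119) and the reelin receptor Vldlr (0.165) for Bcan. Sparcl1 (A_66_P101939) was nearest to the endothelin receptor Ednrb (0.0776) and the adhesion molecule Dscam (0.0851). With 2 arrays a group, such a distance mainly reflects the 3 group means.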

How the data were processed

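The authors deposited scanner files with the mean intensity and local background intensity of each spot and dye, which per the file headers came from Feature Extraction A.7.5.1, and a series matrix in log10 units, used as an alternative. Matrix differences from MAPC replicate 1 were compared with the same differences of the deposited log10 ratio, with the sign turned. They were equal within 0.001 for 88.3% to 90% of spots (correlations 0.8524 to 0.9882). The centring and floor of the matrix stay unknown (medians 2.95 to 2.97). Intensities were corrected with normexp (offset 50) and loess-normalized to log2 ratios of sample to reference in limma 3.58.1 (R 4.3.3, data.table, 1.17.8). Control and outlier-marked spots were left out. A probe was tested if well above background in Cy3 on both arrays of at least 1 group (39403 of 41006 probes); 91.9% to 99.6% of spots carried that mark. Names came from RefSeq: 15294 probes by accession, 23 by symbol, 112 by older symbol, 25577 unnamed. A single limma fit of 6 arrays (lmFit, eBayes, two-sided, 3 residual degrees of freedom) gave 3 contrasts, with Benjamini-Hochberg adjustment over all probes tested in each; the fit was tested on simulated data. The sample channel alone was normexp-corrected and quantile-normalized.

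The 9 genes and 15 lists were chosen with earlier results of these data known. Each probe of the 9 genes is named. From each list at most the 4 largest changes against NS are named, plus genes tied to one of the 9 by binding, kinship or reaction. Some markers of cell types are named as well. Of 259 listed genes, 200 had a probe, and the brightest probe was used. Columns without a sample numbered 0. The number of arrays limits the precision. A few genes that this rule would name are not reported here.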

Additional observations from a re-analysis of the deposited data

How the results depend on the processing

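Over 17 to 18 alternatives per comparison, the number of probes past the threshold ranged from 10163 to 16062 in MAPC minus ESC, 13368 to 18117 in MAPC minus NS and 10471 to 15744 in ESC minus NS. For the 12 probes, 585 of 619 values kept their side of the threshold, 29 lost it and 5 gained it. Where a difference passed in the main fit or in the alternative, 0 reversed direction. Differences that passed in neither could change sign, as for Bcan A_66_P114742 in MAPC minus ESC (-0.08 to 0.09). With the sample channel alone, 4 of the 12 passed in MAPC minus ESC in place of 7. Leaving out 1 array at a time left 6 to 7 of the 12 in MAPC minus ESC, 10 to 12 in MAPC minus NS and 9 to 12 in ESC minus NS; a lone array was assumed to vary like the other groups. Among the other genes named, 3 values reversed, all in the sample channel alone and none past the threshold there: Sox8 in MAPC minus ESC (-0.0703, adjusted p = 0.681), Igfbp7 in MAPC minus NS (0.0275, adjusted p = 0.915) and Acan in ESC minus NS (-0.10, adjusted p = 0.624). The labels do not say that replicate numbers pair the samples, and the correlations of their deviations were 0.0941, 0.156 and 0.207; with the replicate number as a block, 15792 probes passed in MAPC minus ESC, and of the 12 probes only Sparcl1 A_66_P130178 changed its call, in MAPC minus ESC. The day of Feature Extraction coincided with the replicate number, so that block is the same fit. Probes of 1 gene averaged before the fit give no value per probe for Bcan, Sparcl1 and Glul. Probes near background, such as Olig2 and Bcan A_66_P114742, and the saturated Fabp7 spot limit what can be said of size.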
